A study of Homo sapiens with 8 samples.

Results

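The 10 receptors described here carry growth factor and cytokine signals into myeloid cells: FLT3, KIT, CSF1R, CSF2RA, CSF2RB, CSF3R, IL3RA, IL6R, IL6ST and IFNGR1. They were taken by gene symbol from a count table of 26475 genes, and all 10 had a row. The table holds RNA-seq of MOLM-13, an established human acute myeloid leukemia line with a KMT2A-AF9 (MLL-AF9) fusion, which every group carries. The line is also FLT3-mutant, and counts per gene do not separate mutant from normal FLT3 transcripts. The 8 libraries form 4 groups of 2: DMSO, the vehicle; VTP50469, an inhibitor of Menin; WM1119, an inhibitor of the histone acetyltransferase KAT6A, spelled WM119 in the sample labels; and both inhibitors together, called the combination. Doses and treatment times were not given in the sources used here. It was also not stated that replicate libraries are separate cultures, so the tests measure only the spread between these libraries. All values come from 1 line, and every group is compared in bulk RNA, where a change in the share of cells that express a gene and a change in RNA per cell cannot be told apart.

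FLT3, KIT and CSF1R are receptor tyrosine kinases of the same class, which dimerize when FLT3 ligand, stem cell factor, or CSF-1 and IL-34 bind. FLT3 and KIT mark stem and progenitor cells, whereas CSF1R drives the monocyte and macrophage lineage. CSF3R is the G-CSF receptor of the neutrophil lineage. CSF2RA and IL3RA are the ligand-binding chains for GM-CSF and IL-3 and share the signaling chain CSF2RB. IL6R binds IL-6 and signals through IL6ST (gp130), and IFNGR1 is the ligand-binding chain for interferon gamma. The cytokine receptors have no kinase of their own and signal through JAK kinases and STAT factors. Menin holds the KMT2A fusion on its target genes, and KAT6A acetylates histone H3, so the comparisons ask how the receptor repertoire changes when either or both are inhibited.

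The libraries held between 18092906 and 23634468 counts. The second combination library stood apart from the others: 12976 genes had counts in it, against 14142 to 14546 in the other 7. The 2 combination libraries differed more than 2-fold in 1842 of the 12401 genes tested, compared with 27 to 83 genes in the other pairs. Its log2 difference from DMSO fell with transcript length, with a Spearman correlation over genes of -0.56; in the other treated libraries that correlation lay between -0.52 and 0.09. All 9 markers chosen for a myeloid leukemia line were detected. Levels are in CPM (counts scaled to the library total, with the TMM correction explained below). These markers summed to 981 to 1036 CPM in DMSO and 2904 to 3567 with VTP50469. The sums were 2058 to 2139 CPM with WM1119 and 8355 to 11315 in the combination. LYZ and MPO made up most of these sums. LYZ averaged 569 CPM in DMSO and 7403 in the combination, and MPO averaged 44.3 and 1818. The markers did not all move together: in the combination against DMSO, 6 of the 9 passed as higher and 1 as lower in edgeR. CSF1R belongs both to these markers and to the receptors described here. Markers of erythroid cells summed to at most 0.141 CPM, and HBB, HBA1 and ALAS2 were at 0 in all 8 libraries. T and NK cell markers summed to 22.3 to 35 CPM outside the combination and to 33.2 and 84.3 CPM in it, with CD3E, CD3G and KLRD1 at 0 throughout. NKG7 made up most of that sum, at 19.9 ± 0.957 CPM in DMSO and 56.2 ± 36.6 in the combination (SD, n = 2). CD2 passed in the combination against DMSO (0.027 and 0.837 CPM, edgeR adjusted p = 0.0448), and CD3D was at 3.67 and 1.76 CPM without passing. The CD2 call rests on few counts, with at most 0.868 CPM in any library, and DESeq2 gave it an adjusted p of 0.0505. Its log2 difference ranged from 3.80 to 7.15 when a library was left out. The part of these markers in the receptor results was not tested.

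To show the DNA next to the starts of genes that moved in different directions, the sequence upstream of 3 receptor genes is given for CSF1R and CSF2RA, which were higher in the combination, and for FLT3, which was lower. The windows come from RefSeq (GRCh38.p14), run 5′ to 3′ on the gene's strand and were cut back to bases outside annotated exons. Capitals mark GAGGAA, a core of the sites bound by SPI1 (PU.1), and TGNGGT, a pattern that takes in the core bound by RUNX1. N is any base, so a TGNGGT match need not be a RUNX1 core. Either motif may be read on either strand (GAGGAA then appears as TTCCTC). CSF1R has several starts, and the one shown, at chr5:150086608-150086804 on the minus strand, lies inside the annotated gene, upstream of its myeloid start. CSF2RA is shown at chrX:1268564-1268799 on the plus strand and FLT3 at chr13:28100593-28100826 on the minus strand.
CSF1R: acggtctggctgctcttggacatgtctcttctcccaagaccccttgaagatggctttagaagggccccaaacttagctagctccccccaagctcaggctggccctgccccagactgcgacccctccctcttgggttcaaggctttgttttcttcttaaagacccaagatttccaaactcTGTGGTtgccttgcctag
CSF2RA: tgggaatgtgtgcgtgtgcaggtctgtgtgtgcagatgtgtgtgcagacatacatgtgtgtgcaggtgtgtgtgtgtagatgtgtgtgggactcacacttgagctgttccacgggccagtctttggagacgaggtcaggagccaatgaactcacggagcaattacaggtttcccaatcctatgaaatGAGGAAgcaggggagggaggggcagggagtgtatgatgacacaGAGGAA
FLT3: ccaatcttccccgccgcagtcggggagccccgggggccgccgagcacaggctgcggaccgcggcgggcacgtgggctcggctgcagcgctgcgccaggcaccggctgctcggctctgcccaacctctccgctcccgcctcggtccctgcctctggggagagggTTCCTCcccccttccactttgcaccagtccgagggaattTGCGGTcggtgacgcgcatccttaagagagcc

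The CSF1R stretch held 1 TGNGGT. The CSF2RA stretch held 2 GAGGAA, the last of them directly before the first annotated exon. The FLT3 stretch held 1 GAGGAA, read on the opposite strand, and 1 TGNGGT. The full windows ran from 250 bases before each start to 50 after it. The CSF1R window also held 3 GAGGAA in the part after the printed stretch. Of the 10 receptors, 9 had windows in the RefSeq table, 12 windows in all. GAGGAA occurred in 6 of the 12 windows (of CSF1R, CSF2RA, CSF3R, FLT3, IFNGR1 and IL6R). GAGGAA occurred in 27.9% of the 34789 windows of all genes. TGNGGT occurred in 7 of the 12 windows, from 7 receptors, and in 43.2% of all windows. TTNNGCAA, a core bound by C/EBP factors, occurred in 3 of the 12 (of CSF3R, IFNGR1 and IL3RA) and in 10.5% of all windows. The KIT window, the CSF1R window at the outer start of the gene and an IFNGR1 window held none of the 3 motifs. The sequence of CSF3R, also higher in the combination, is not printed. Its longest stretch outside exons held 1 TTNNGCAA and neither of the other motifs. These matches describe the letters only.

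Gene levels are given as CPM after TMM scaling, which corrects for library composition. Where genes are set against each other, CPM was divided by the length of the canonical transcript in kb. On that per-kb scale FLT3 was the most abundant of the 10 in the DMSO libraries, with 35.8% and 34.0% of their summed level, followed by IL6R with 23.5% and 23.3% and IFNGR1 with 19.7% and 21.0%. IL3RA and CSF2RA took 6.68% to 9.40% each, CSF3R 3.16% and 4.37%, and CSF1R, IL6ST, CSF2RB and KIT less than 1% each. FLT3 lay above IL6R and IL6R above IFNGR1 in both DMSO libraries. Most of the summed level of these 10 genes in DMSO thus came from FLT3, IL6R and IFNGR1.

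**Figure D1:**
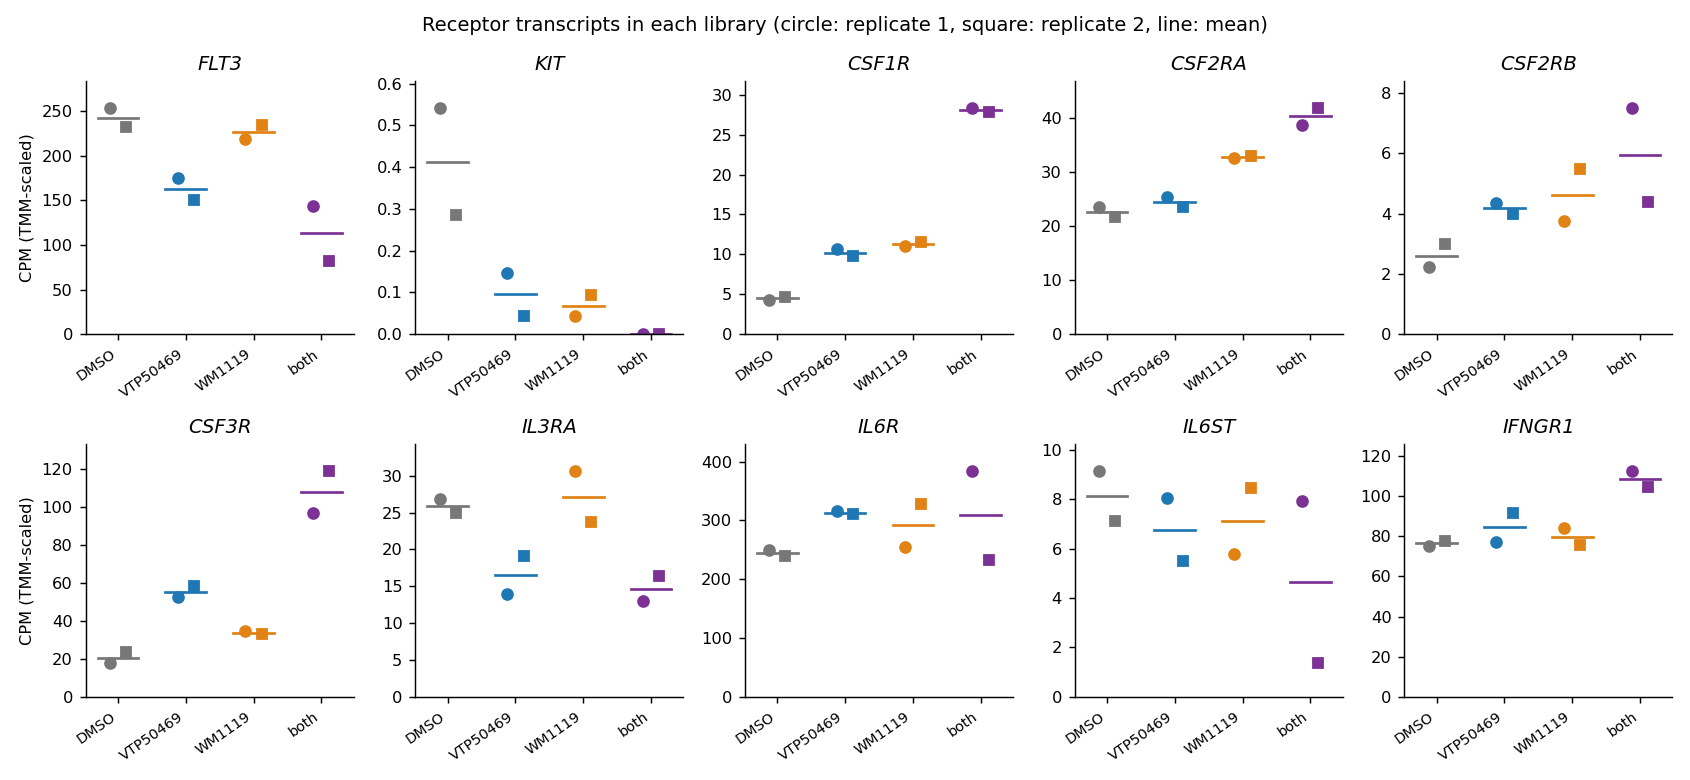
CPM after TMM scaling (vertical axes, each from 0) of the 10 receptor genes in the 4 groups (horizontal axes; "both" is the combination). Circles are replicate 1, squares replicate 2 and lines the mean of the 2. CSF1R and CSF3R are lowest in DMSO and highest in the combination, FLT3 and IL3RA are lower in the 4 libraries with VTP50469, and the combination squares of FLT3, CSF2RB, IL6R and IL6ST lie below their circles.

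In the combination against DMSO, 4 of the 9 receptors tested passed edgeR's quasi-likelihood test at an adjusted p under 0.05, 3 of them higher (CSF1R, CSF3R and CSF2RA) and 1 lower (FLT3). Of all 12401 genes tested, 9.29% passed in this comparison, 5.85% higher and 3.44% lower. The median log2 difference was 0.50 over the 9 receptors and 0.01 over all genes tested. The libraries of the combination and DMSO did not overlap for 7 receptors, and for 59.9% of all genes tested. KIT had too few counts to be tested. The share of all genes called moved widely when 1 library was left out, from 0.537% without DMSO replicate 1 to 14.5% without combination replicate 2 and 60.8% without combination replicate 1, and the values without a library given for single receptors are to be read against these shares.

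CSF1R, the receptor for CSF-1 and IL-34, was at 4.33 and 4.65 CPM in DMSO, 10.7 and 9.75 with VTP50469, 11 and 11.5 with WM1119, and 28.3 and 27.8 in the combination. Both single inhibitor groups lay above DMSO and below the combination, with no overlap. In the combination CSF1R was 6.25-fold higher than in DMSO (log2 difference 2.64 ± 0.16 SE, edgeR adjusted p = 0.00156), and ranked 6 by p among all genes tested. It rose further when the other inhibitor was added to either one, by 1.46 over VTP50469 (adjusted p = 0.0298, edgeR) and by 1.32 over WM1119 (adjusted p = 0.0152, edgeR). In those 2 comparisons 0.395% and 1.43% of all genes passed. Each single inhibitor against DMSO gave differences of similar size, 1.19 for VTP50469 (adjusted p = 0.0555, edgeR) and 1.32 for WM1119 (adjusted p = 0.200, edgeR), neither of which passed. The rise over DMSO in the combination was 2.58 to 2.69 on the log2 scale and passed whichever of the 8 libraries was left out (highest adjusted p = 0.0430, edgeR). The 2 calls against the single inhibitors held only without a combination library and were lost without any other (adjusted p up to 0.454 and 0.212, edgeR).

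CSF3R, the G-CSF receptor, was at 17.6 and 23.4 CPM in DMSO, 52.3 and 58.2 with VTP50469, 34.5 and 32.9 with WM1119, and 96.7 and 119 in the combination. The 4 groups did not overlap, and VTP50469 alone lay above WM1119 alone. The combination was 5.25-fold higher than DMSO (log2 difference 2.39 ± 0.20 SE, edgeR adjusted p = 0.00224) and 3.20-fold higher than WM1119 (1.68 ± 0.19, edgeR adjusted p = 0.0153). Its difference of 0.96 from VTP50469 did not pass (adjusted p = 0.0925, edgeR). Against DMSO, VTP50469 alone gave 1.43 (adjusted p = 0.0607, edgeR) and WM1119 alone 0.71 (adjusted p = 0.600, edgeR). As for CSF1R, the call in the combination against DMSO held whichever library was left out (2.19 to 2.61, highest adjusted p = 0.0440, edgeR). The call against WM1119 held without DMSO replicate 2 or either combination library and was lost without any of the other 5 (highest adjusted p = 0.206, edgeR).

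CSF2RA, the GM-CSF-binding chain, was at 23.5 and 21.6 CPM in DMSO, 25.4 and 23.5 with VTP50469, 32.5 and 33 with WM1119, and 38.7 and 41.8 in the combination. VTP50469 overlapped DMSO, and the 4 libraries with WM1119 lay above the 4 without it. The combination was 1.79-fold higher than DMSO (log2 difference 0.84 ± 0.13 SE, edgeR adjusted p = 0.0154). CSF2RA lies in the pseudoautosomal region, with copies on X and Y, as does IL3RA, and how reads from such copies were assigned was not stated in the sources used here. The call was lost without any DMSO, VTP50469 or WM1119 library (adjusted p up to 0.181, edgeR), while the log2 difference stayed between 0.77 and 0.89.

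FLT3 was at 253 and 232 CPM in DMSO, 174 and 151 with VTP50469, 219 and 234 with WM1119, and 144 and 82.2 in the combination. The libraries with VTP50469 all lay below those without it, and WM1119 alone overlapped DMSO. In the combination FLT3 was 2.15-fold lower than in DMSO (log2 difference -1.10 ± 0.25 SE, edgeR adjusted p = 0.0447). The size depended on the combination library: -0.74 without replicate 2 and -1.57 without replicate 1, both passing. The call was lost without any DMSO, VTP50469 or WM1119 library (adjusted p up to 0.260, edgeR). VTP50469 alone gave -0.58 against DMSO (adjusted p = 0.759, edgeR) and WM1119 alone -0.10.

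No receptor passed in VTP50469 against DMSO, where 0.169% of all genes did, or in WM1119 against DMSO, where 0% did. At an unadjusted p under 0.05 in edgeR, 3 receptors passed with VTP50469 (CSF1R, CSF3R and IL3RA) and 3 with WM1119 (CSF1R, CSF2RA and CSF3R), compared with 6.75% and 4.94% of all genes. For WM1119 that was 612 genes, and none passed after adjustment. DESeq2 called 2 receptors with VTP50469 and 1 with WM1119, beside 1.24% and 0.5% of all genes. With VTP50469, voom with quality weights and a fit of only the 2 groups each called 5, beside 9.39% and 11.1% of all genes. Each of these comparisons had 2 libraries a side and shared the DMSO libraries with the others. In the main fit the spread was estimated over all 4 groups, so the gap between the combination libraries also entered these tests. A receptor that did not pass there is therefore not shown to be unchanged.

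To use all 8 libraries, the change with each inhibitor was averaged over the presence and absence of the other, 4 libraries with it against 4 without. With VTP50469 present, CSF1R (log2 difference 1.25 ± 0.11 SE, edgeR adjusted p = 0.00347) and CSF3R (1.55 ± 0.13, edgeR adjusted p = 0.00355) were higher, whereas 3.5% of all genes passed. FLT3 (-0.79 ± 0.18, edgeR adjusted p = 0.0696) and IL3RA (-0.77 ± 0.16, edgeR adjusted p = 0.0528) lay just outside the threshold. With WM1119 present, CSF1R (1.39 ± 0.11, edgeR adjusted p = 0.00806), CSF2RA (0.63 ± 0.09, edgeR adjusted p = 0.0371) and CSF3R (0.84 ± 0.13, edgeR adjusted p = 0.0392) were higher, and 1.75% of all genes passed. The 3 calls for WM1119 were lost without any DMSO, VTP50469 or WM1119 library (adjusted p up to 0.264, edgeR). With VTP50469, the CSF3R call held without each library in turn and the CSF1R call without each but DMSO replicate 1 (adjusted p = 0.0516, edgeR).

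**Figure D2:**
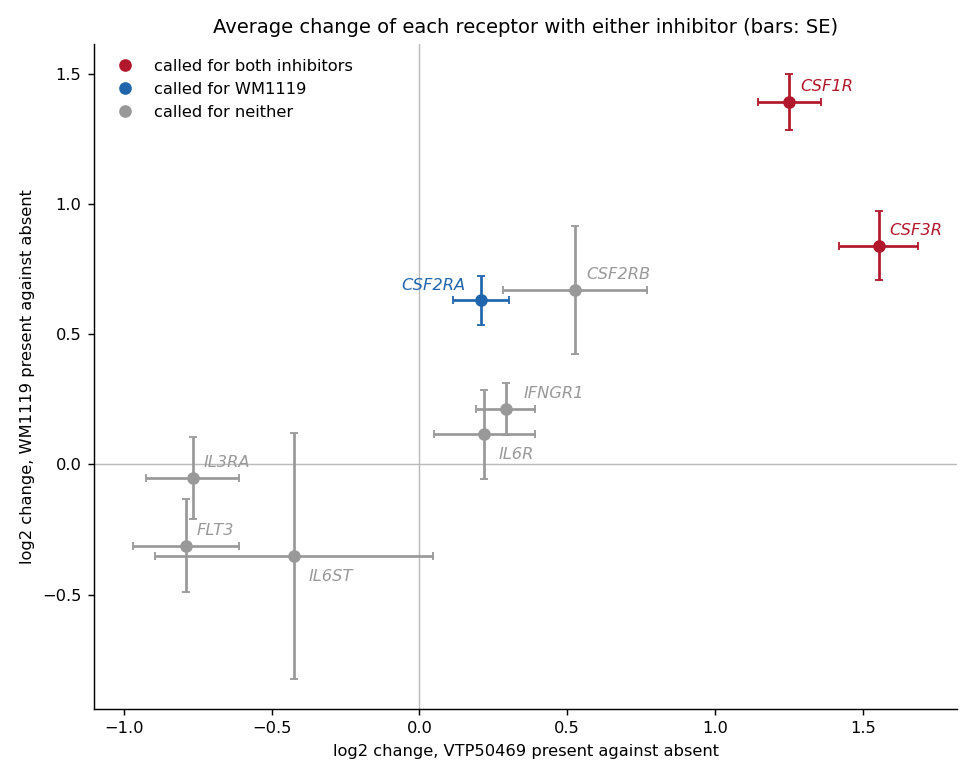
Log2 change with VTP50469 present against absent (horizontal) and with WM1119 present against absent (vertical) for the 9 receptors tested; bars are standard errors from edgeR. CSF1R and CSF3R lie far to the upper right (1.25 and 1.39, 1.55 and 0.84), CSF2RA is displaced mainly upwards (0.21 and 0.63), and FLT3 and IL3RA are displaced to the left (-0.79 and -0.31, -0.77 and -0.05).

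The groups separated differently for different receptors. All 4 libraries with VTP50469 lay above the 4 without it for CSF3R and below for FLT3 and IL3RA, and 10.5% of all genes tested were separated in this way. All 4 libraries with WM1119 lay above the others for CSF1R and CSF2RA, compared with 10% of all genes. The 2 average changes were also tested against each other, which amounts to VTP50469 alone and WM1119 alone compared directly. No receptor passed that test and 0.0323% of all genes did. At an unadjusted p under 0.05 in edgeR, 3 receptors and 5.39% of all genes passed: CSF3R was 0.71 higher with VTP50469 than with WM1119 on the log2 scale (95% interval 0.27 to 1.16), IL3RA was 0.72 lower (-1.24 to -0.19) and CSF2RA 0.42 lower (-0.74 to -0.11). For CSF1R the difference was -0.14 (-0.49 to 0.21).

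Whether the combination exceeded the sum of the single changes was tested as an interaction on the log2 scale. No receptor and 0% of all genes passed; at an unadjusted p under 0.05 in edgeR the numbers were 0 receptors and 273 genes (2.2%), and DESeq2 called 0 receptors. The estimate for CSF1R was 0.13 with a 95% interval of -0.37 to 0.64, for CSF3R 0.25 (-0.38 to 0.87), for CSF2RA 0.18 (-0.27 to 0.63) and for FLT3 -0.43 (-1.27 to 0.42). These intervals leave room for departures in either direction, so the test does not show that the changes simply added up. Without combination replicate 1, FLT3 passed with -0.90 (adjusted p = 0.0142, edgeR), IL6R with -0.69 (adjusted p = 0.0314, edgeR) and IL6ST with -2.12 (adjusted p = 0.0217, edgeR), in a fit where 30.9% of all genes passed.

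The IL-3 and GM-CSF receptor chains share a subunit but differed in pattern. IL3RA, the IL-3-binding chain, was at 26.8 and 24.9 CPM in DMSO, 14.0 and 19.1 with VTP50469, 30.7 and 23.7 with WM1119, and 13 and 16.4 in the combination. It was therefore low in the 4 libraries with VTP50469 and overlapped DMSO with WM1119 alone. The combination was 1.76-fold below DMSO without passing (log2 difference -0.82 ± 0.22 SE, edgeR adjusted p = 0.0677). CSF2RB, the shared signaling chain, was at 2.22 and 2.99 CPM in DMSO, 4.36 and 4 with VTP50469, 3.75 and 5.49 with WM1119, and 7.51 and 4.40 in the combination. DMSO was the lowest group, but the difference of the combination from it did not pass (1.2 ± 0.35, edgeR adjusted p = 0.0805), and it was 0.74 without combination replicate 1 and 1.53 without replicate 2. On the per-kb scale the ratio of CSF2RA to IL3RA was 0.744 and 0.734 in DMSO, 1.54 and 1.04 with VTP50469, 0.900 and 1.18 with WM1119, and 2.52 and 2.17 in the combination, so transcripts of the GM-CSF-binding chain outnumbered those of the IL-3-binding chain in both combination libraries and in neither DMSO library.

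IL6R, the IL-6-binding chain, was at 250 and 240 CPM in DMSO, 316 and 311 with VTP50469, 255 and 328 with WM1119, and 384 and 234 in the combination. The combination libraries lay on either side of DMSO, and the difference of 0.34 ± 0.24 SE did not pass (adjusted p = 0.356, edgeR). It was 0.66 without combination replicate 2 (adjusted p = 0.0190, edgeR) and -0.08 without replicate 1. IL6ST, its signaling partner, was at 9.14 and 7.11 CPM in DMSO, 8.04 and 5.49 with VTP50469, 5.79 and 8.44 with WM1119, and 7.93 and 1.36 in the combination. The groups overlapped except for the single low value in combination replicate 2, and the log2 difference went from -0.02 without that library to -2.58 without the other. IL6ST overlaps an exon of ENSG00000262211 on the opposite strand, and whether counting used strand was not stated in the sources used here.

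IFNGR1, the interferon gamma-binding chain, was at 75.4 and 77.5 CPM in DMSO, 77.3 and 91.6 with VTP50469, 83.9 and 75.9 with WM1119, and 113 and 104 in the combination. Both combination libraries lay above the other 6. The difference from DMSO was 0.50 ± 0.14 SE and did not pass (adjusted p = 0.0698, edgeR).

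KIT, the stem cell factor receptor, was close to the limit of detection. It had 10 and 6 counts in DMSO, 3 and 1 with VTP50469, 1 and 2 with WM1119, and 0 and 0 in the combination. DMSO was the highest group in each case. Scaled to library size, DMSO was 4.36-fold higher than VTP50469 (95% counting interval 1.41 to 17.9) and 6.04-fold higher than WM1119 (1.73 to 32.3). The combination was at least 5.35-fold lower than DMSO, taking 3 counts over the group as the upper limit that a count of 0 allows. These bounds cover counting error only. Without a filter on low counts, edgeR gave KIT an adjusted p of 0.104 in the combination against DMSO, and DESeq2 gave 0.0517.

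**Figure D3:**
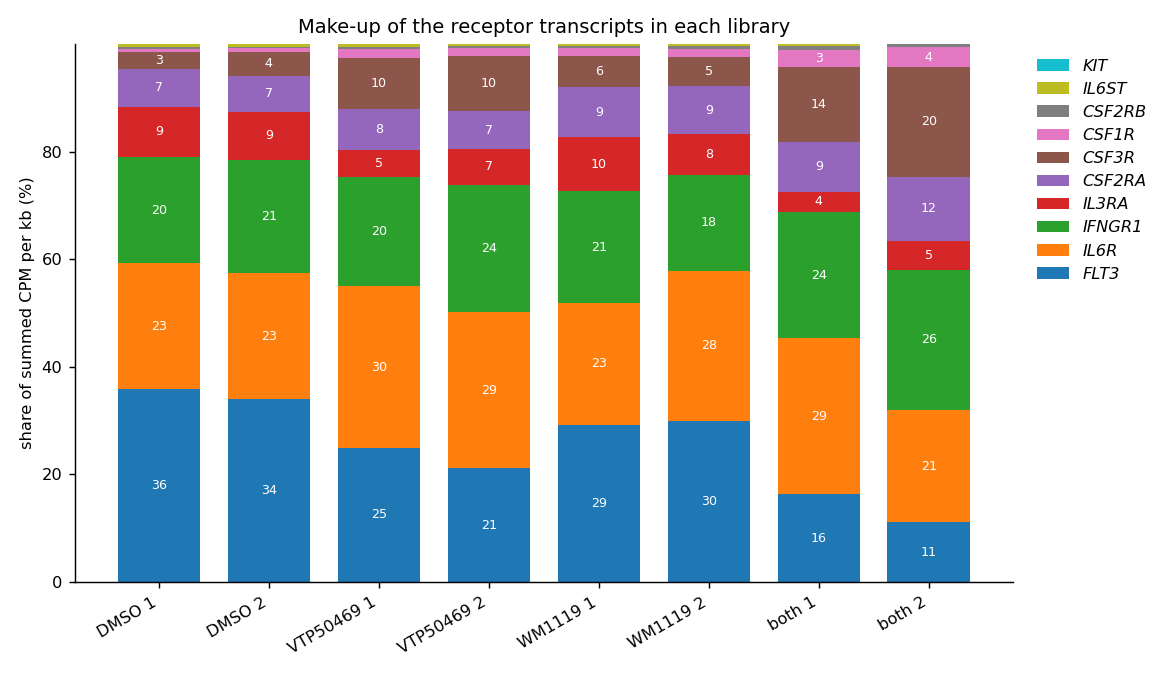
Share of each receptor in the summed CPM per kb of the 10 receptors (vertical axis, %) in each of the 8 libraries (bars; "both" is the combination). The FLT3 segment falls from 35.8% and 34.0% in DMSO to 16.3% and 11.1% in the combination, and the CSF3R segment rises from 3.16% and 4.37% to 14.0% and 20.4%.

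The changes added up to a different receptor make-up rather than to a large change in the total. The summed level of the 10 receptors was 185 and 178 CPM per kb in DMSO and 230 and 194 in the combination. FLT3 and IL6R together made up 59.3% and 57.4% of it in DMSO and 45.3% and 32.0% in the combination. FLT3 alone went from 35.8% and 34.0% to 16.3% and 11.1%. IL6R alone took 23.5% and 23.3% in DMSO and 29.0% and 20.9% in the combination, on either side of DMSO. CSF1R, CSF3R and CSF2RA together went from 10.8% and 11.7% to 26.4% and 36.0%. In the single inhibitor groups these 3 receptors took 18.7% in both VTP50469 libraries, and 16.5% and 15.7% in the WM1119 libraries.

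Ratios between receptors within a library do not depend on its scaling. There were 11.3 and 7.78 FLT3 transcripts per CSF3R transcript on the per-kb scale in DMSO, 2.62 and 2.03 with VTP50469, 4.99 and 5.59 with WM1119, and 1.17 and 0.544 in the combination. CSF3R therefore came near FLT3 in the first combination library and exceeded it only in the second, the library that stood apart. From the first to the second, FLT3 differed by -0.80 and CSF3R by 0.30 on the log2 scale. The part of transcript length in these ratios was not tested. For CSF1R, the numbers of FLT3 transcripts per CSF1R transcript were 58.4 and 49.8 in DMSO, 16.3 and 15.4 with VTP50469, 19.8 and 20.3 with WM1119, and 5.06 and 2.95 in the combination. FLT3 remained the more abundant of the 2 in all 8 libraries.

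The receptors with a large gap between the combination libraries had the longer transcripts. Replicate 2 minus replicate 1 of the combination was -2.54 on the log2 scale for IL6ST, whose canonical transcript has 9.03 kb, -0.72 for IL6R (5.76 kb), -0.77 for CSF2RB (4.85 kb) and -0.80 for FLT3 (3.83 kb). CSF1R, at 3.82 kb, differed by -0.03. The gap was 0.30 for CSF3R (3.01 kb), -0.11 for IFNGR1 (2.07 kb), 0.11 for CSF2RA (1.81 kb) and 0.33 for IL3RA (1.54 kb). With an offset for transcript length, 7 of the 9 receptors passed in the combination against DMSO, FLT3 among them, and so did 20% of all genes, against 9.29% without the offset.

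**Figure D4:**
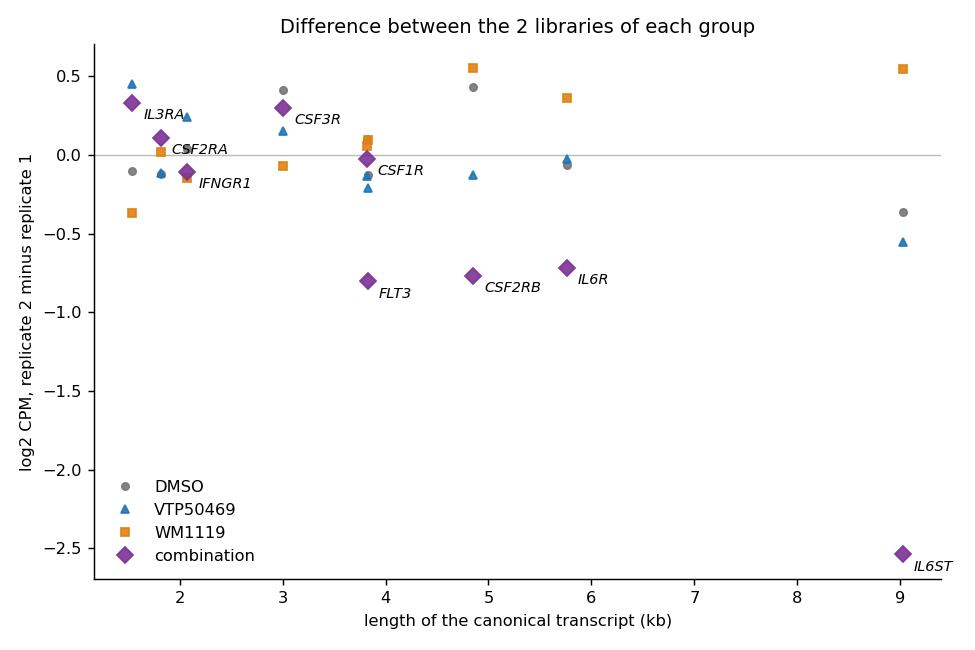
Log2 CPM of replicate 2 minus replicate 1 (vertical axis) against the length of the canonical transcript in kb (horizontal axis) for the 9 receptors tested, 1 symbol per group. The combination diamonds fall to between -0.72 and -0.80 for FLT3, CSF2RB and IL6R and to -2.54 for IL6ST, while the other pairs stay between -0.55 and 0.55.

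Most genes for ligands of these receptors had too few counts to be tested. Of the 9 ligand genes, FLT3LG alone had enough counts to be tested, at 1.08 ± 0.31 CPM in DMSO and 2.21 ± 1.08 in the combination (SD, n = 2), and it did not pass (log2 difference 1.02, edgeR adjusted p = 0.216).

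Among 19 tested other cytokine receptor chains, 3 were higher and 1 was lower in the combination than in DMSO. Over all genes tested the shares were 5.85% higher and 3.44% lower. The median log2 difference was 0.04 for these chains, beside 0.01 over all genes tested. IL13RA1, a chain of the IL-13 and type II IL-4 receptors, rose from 16.7 ± 1.56 to 54.9 ± 5.81 CPM (log2 difference 1.72, edgeR adjusted p = 0.00352). It also passed with either inhibitor present, at 0.93 for VTP50469 and 0.79 for WM1119. The IL-10 receptor chains IL10RA (1.08) and IL10RB (0.77) rose, and IFNLR1, a chain of the interferon lambda receptor, fell by 1.19 on the log2 scale. IL7R, the IL-7-binding chain, was lower with WM1119 present by -1.16 (adjusted p = 0.0372, edgeR) and its difference in the combination against DMSO was -0.39.

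None of the 8 tested other receptor tyrosine kinases was higher in the combination and 4 were lower, beside 5.85% and 3.44% of all genes. Their median was -1.01. TYRO3 went from 18.8 ± 0.61 to 6.15 ± 1.68 CPM (-1.60, edgeR adjusted p = 0.00808), and EPHB4 (-0.88), FGFR1 (-1.13) and AXL (-3.83) also passed. AXL was at 1.46 CPM in DMSO and 0.085 in the combination, so its fold change rests on few counts.

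Of 26 tested receptor-proximal kinases, adaptors and STATs, 5 were higher and none was lower, beside 5.85% and 3.44% of all genes. Their median was -0.04. FGR, a kinase of mature myeloid cells, was at 1.46 and 1.42 CPM in DMSO, 5.79 and 7.55 with VTP50469, 2.09 and 1.92 with WM1119, and 22.3 and 36.1 in the combination. It rose by 4.33 on the log2 scale (adjusted p = 0.00181, edgeR), and this call held whichever library was left out. FES, a kinase linked to GM-CSF and IL-3 signaling, rose by 1.02 and PIK3R5, a regulatory subunit of PI3K gamma, by 0.86. TYK2, also called, was named only after its value was seen.

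Of 22 tested negative regulators of receptor signaling, 3 were higher and 2 lower, beside 5.85% and 3.44% of all genes. Their median was -0.13. SOCS2, a STAT5 target that restrains cytokine signaling, was at 47.6 and 48.6 CPM in DMSO, 27.2 and 23.4 with VTP50469, 38.2 and 35.2 with WM1119, and 10.6 and 10.5 in the combination. It fell by 2.19 on the log2 scale (adjusted p = 0.00181, edgeR), a call that held without each of the 8 libraries. It also passed with VTP50469 present (-1.36) and with WM1119 present (-0.83). DUSP4 and DUSP6, phosphatases of the ERK pathway, moved apart, with -2.28 and 0.93. SLA, an adaptor that lowers surface receptor levels, rose by 0.98, and SPRY4, also called, was named only after its value was seen.

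Of 9 tested genes of receptor shedding and trafficking, 3 were higher and none was lower, beside 5.85% and 3.44% of all genes. Their median was 0.08. SORL1, a sorting receptor, was at 14.0 and 12.2 CPM in DMSO and 107 and 55.7 in the combination (2.64, edgeR adjusted p = 0.00828). The chaperones HSP90B1 (0.63) and CALR (0.91) rose as well.

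Of 17 tested transcription factors known to act on these receptor genes, 5 were higher and 2 lower, beside 5.85% and 3.44% of all genes. Their median was 0.07. SPI1 (PU.1), which binds GAGGAA-type sites, rose from 144 ± 6.01 to 330 ± 123 CPM (1.19, edgeR adjusted p = 0.0324). CEBPE, a factor of granulocyte maturation, was at 0.433 and 0.569 CPM in DMSO, 2.99 and 3.60 with VTP50469, 1.11 and 0.657 with WM1119, and 9.46 and 26.0 in the combination (5.11, edgeR adjusted p = 0.00623). CEBPD rose by 2.05, while IRF8, a factor of monocyte and dendritic cells, fell by 0.90 on the log2 scale. The other 3 called, CEBPA and CEBPB (higher) and MEIS1 (lower), were named only after their values were seen.

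Leaving out each library was run for the genes of these lists named by rule, so not for TYK2, SPRY4, CEBPA, CEBPB and MEIS1. In the combination against DMSO, FGR and SOCS2 kept the call without each library. IL13RA1, TYRO3, SLA, SORL1, CEBPE and CEBPD lost it without either DMSO library (adjusted p up to 0.136, edgeR), DUSP4 without either DMSO or WM1119 library, and IFNLR1 without either DMSO or VTP50469 library. IL10RA, IL10RB, FGFR1, AXL, EPHB4, FES, PIK3R5, DUSP6, HSP90B1, CALR, SPI1 and IRF8 lost it without any DMSO, VTP50469 or WM1119 library (adjusted p up to 0.286, edgeR). With 1 inhibitor present against absent, the SOCS2 call for VTP50469 held without each library, and the calls of IL13RA1 for either inhibitor and of IL7R and SOCS2 for WM1119 were lost without any DMSO, VTP50469 or WM1119 library (adjusted p up to 0.253, edgeR).

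**Figure D5:**
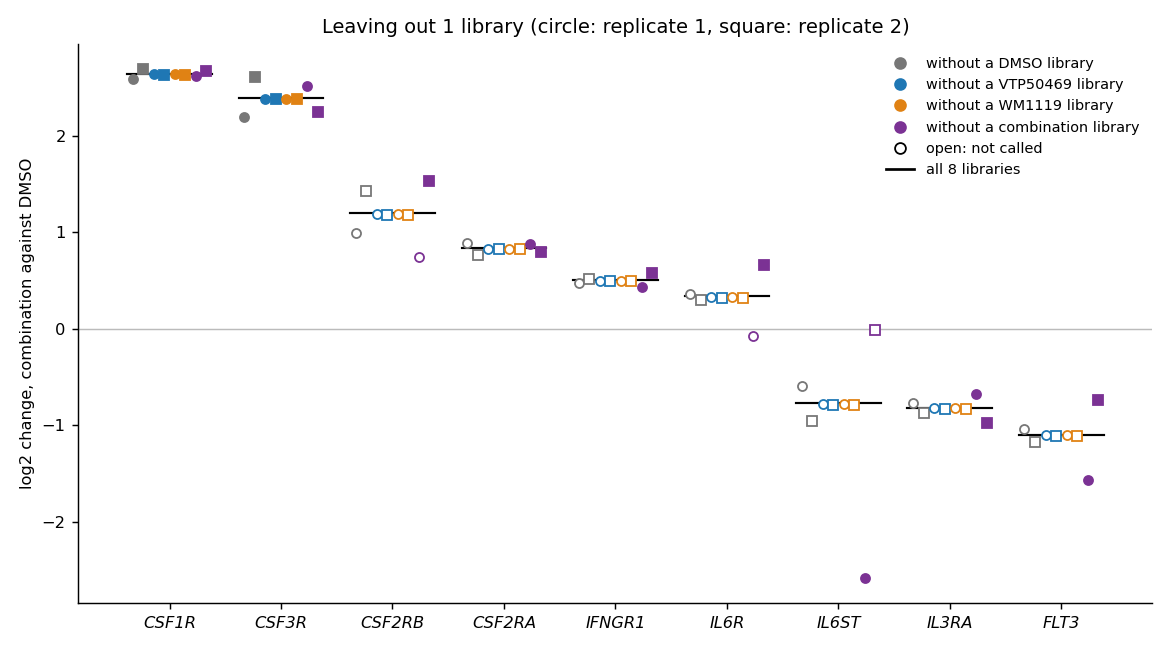
Log2 difference of the combination from DMSO (vertical axis) for the 9 receptors tested, with all 8 libraries (black lines) and without each library in turn (symbols, coloured by the group of the library left out; filled where the edgeR adjusted p was under 0.05). CSF1R and CSF3R are filled throughout, FLT3 and CSF2RA are filled only without a combination library, and IL6ST moves from -0.02 to -2.58.

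The genes whose profile over the 8 libraries was most like that of FLT3 were sought among 8604 genes with a mean of at least 10 CPM. The highest Pearson correlations of log2(CPM + 1) were with NCAM2 (0.994), KDM2B (0.994), MEF2C (0.993) and IGF2BP2 (0.993). For CSF1R they were BNIP3L (0.991), ATF6B (0.989), FAM111A (0.986) and SUN2 (0.983). Without combination replicate 2 these 8 correlations lay between 0.979 and 0.989, but the order changed: NCAM2, KDM2B, MEF2C and IGF2BP2 ranked 7, 9, 4 and 1 for FLT3, and BNIP3L, ATF6B, FAM111A and SUN2 ranked 6, 15, 21 and 29 for CSF1R. Over all 8 libraries, the Spearman correlations in the same gene order were 0.976, 0.952, 0.952 and 1 for FLT3. Those for CSF1R were 0.952, 0.857, 0.929 and 0.738. The 8 points fall into 4 groups that share their treatment and library, so the values describe a shared pattern over groups only. KIT had too few counts for such a comparison.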

How the data were processed

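Per the labels and the study's methods, paired-end reads were aligned with STAR 2.5.1b to hg38, and the authors deposited 1 table of estimated counts per gene, of which 11.4% to 16.6% of values in a library were not whole. The counting tool, annotation and strand setting were not given in the sources used here. These expected counts were rounded to whole numbers. Of 26475 genes, 12401 passed filterByExpr and entered 1 edgeR (4.0.16, R 4.3.3) quasi-likelihood fit of the 4 groups with TMM factors and Benjamini-Hochberg adjustment; the call was an adjusted p under 0.05. Alternatives used DESeq2 1.42.0, limma 3.58.1 (voom with a quality weight per library), other scalings and filters, a transcript length offset (GENCODE canonical transcripts, found for 92.0% of the genes tested), the replicate block and leaving out each library. The comparison of VTP50469 with WM1119 and the repeats for the context genes were chosen after seeing the data. The receptors and the context and marker lists were chosen with earlier results of these data known. All 10 receptors were named, and of each context list the 4 tested genes with the lowest p in the combination against DMSO and any gene called in another comparison; some results of these lists are not reported here. Correlations of the deviations of same-numbered libraries ranged from -0.661 to 0.350, so replicate numbers were not taken as pairs. The total counts, from 18092906 to 23634468 per library, set the precision, which is lowest for KIT.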

Additional observations from a re-analysis of the deposited data

How the results depend on the processing

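The counts below are receptors of 9 tested, unless KIT also passed a filter. The calls over all genes moved too: in the combination against DMSO, leaving out a library gave 69 to 7756 genes.

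In the combination against DMSO, 4 were called; DESeq2 and the transcript length offset each gave 7, voom with quality weights 2, a fit of only the 2 groups 0, and the fits without a library 2 to 8. In VTP50469 against DMSO, where 0 were called, DESeq2, no filter on low counts and the length offset each gave 2. Of all genes they called 1.24%, 0.305% and 0.992%. Voom and the fit of only the 2 groups gave 5, beside 9.39% and 11.1%. In WM1119 against DMSO, with 0, DESeq2, voom and only the 2 groups each gave 1, beside 0.5%, 1.38% and 0.384% of all genes. In the combination against VTP50469, with 1, DESeq2 gave 3, the length offset 2, voom and only the 2 groups 0, and leaving out a library 0 to 6. Against WM1119, with 2, DESeq2 and the length offset each gave 4, beside 4.29% and 4.61% of all genes. Voom and only the 2 groups gave 0 there, beside 0.323% and 0%. With VTP50469 present, with 2, DESeq2 and no filter each gave 4 and the length offset 5. The shares of all genes were 5.81%, 2.96% and 8.31%. With WM1119 present, with 3, DESeq2, voom and the length offset each gave 3, beside 5.38%, 1.67% and 5.64% of all genes. Scaling to library size alone gave 2 there, beside 1.48%. In every comparison the receptor counts moved when a library was left out, and so did the shares of all genes. In the combination against VTP50469, IL6ST (-0.51) ranged from -2.32, passing without combination replicate 1, to 0.24; the interactions of IL6R and IL6ST ranged from -0.69 to 0.06 and from -2.12 to 0.44.

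The replicate block was fitted because the labels number the libraries alike. It gave 3 receptors in the combination against DMSO (FLT3 lost), 0 in the combination against VTP50469 and 1 with WM1119 present. Of all genes 4.26%, 0.0161% and 0.177% passed. The deviations of same-numbered libraries correlated between -0.661 and 0.35 over the pairs of groups.

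Some directions turned, for values that did not pass with all 8 libraries; IL6R in the combination against DMSO passed without combination replicate 2 and with the length offset, and IL6ST with WM1119 present passed without combination replicate 1. Over the fits without 1 library, the log2 difference ranged from -0.082 to 0.66 for IL6R in the combination against DMSO (negative without combination replicate 1). In WM1119 against DMSO it ranged from -0.13 to 0.23 for IL3RA, from -0.50 to 0.056 for IL6ST and from -0.010 to 0.12 for IFNGR1, all turning without WM1119 replicate 1. With WM1119 present it ranged from -0.16 to 0.064 for IL3RA (positive also without WM1119 replicate 2, 0.029, and combination replicate 1, 0.021), from -0.093 to 0.27 for IL6R and from -1.25 to 0.020 for IL6ST. With the length offset, WM1119 against DMSO became -0.057 for IL3RA and -0.016 for IFNGR1.

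Scaling to library size alone moved the median of all genes in the combination against DMSO from 0.01 to -0.10. FLT3 then lost its call there, as it did under voom and the fit of only the 2 groups, and CSF2RA lost its call under voom and that fit; the causes were not tested. CSF1R and CSF3R passed in the combination against DMSO under all alternatives but the fit of only the 2 groups (adjusted p = 0.0686 and 0.0733, edgeR). Over all genes, the 1152 calls in the combination against DMSO became 2255 with DESeq2, 2481 with the length offset, 366 with voom, 528 with the replicate block and 0 with only the 2 groups.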
